A study of Mus musculus with 11 samples.

Results

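The 8 genes described here encode transcription factors: 7 that are linked to the identity or development of the proximal tubule and other nephron epithelium (Hnf4a, Hnf4g, Pax8, Nr1h4, Maf, Lhx1 and Esrra), and Ets2. They were selected on earlier results of the same arrays, with the log2 differences between knockout and wild type in view. Each was followed through the probe set that carries its symbol alone and, where several did, the one with the highest mean over all arrays. All 8 were found among the 22180 genes named in this way. Because that contrast was used in choosing them, their differences between genotypes are described below with no test.

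RNA came from S3 segments of the kidney proximal tubule of 129/SvEv mice and was measured on Affymetrix arrays. One group lacked Tamm-Horsfall protein, the urinary glycoprotein encoded by Umod (THP -/-, 5 arrays, called knockout), and the other carried it (THP+/+ or WT, 6 arrays, called wild type). The design text sets these genotypes against each other, and the title concerns uromodulin, oxidative stress and the TRPM2 channel. Batch 1, as labelled, held 3 knockout and 5 wild-type arrays and batch 2 held 2 knockout arrays and 1 wild-type array. The labels give no sex or age, do not say how the knockout was made, and do not say that each array is a separate mouse, so the spread between arrays may be partly technical.

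Tubule cells keep their identity through a small set of DNA-binding proteins that work together. HNF4A is a nuclear receptor that binds DNA as a dimer and is needed in mouse proximal tubule for the maturation of transporter and metabolic gene expression, and HNF4G is its close relative. PAX8 and LHX1 act early in the nephron lineage, and PAX8 stays on in adult tubule epithelium. Of the other nuclear receptors, FXR (Nr1h4) senses bile acids and ERR-alpha (Esrra) drives mitochondrial genes. MAF is a basic leucine zipper factor, and ETS2 is a member of the ETS family that is activated through ERK signalling.

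Promoter sequence is shown for Ets2, the one gene of the 8 whose knockout and wild-type arrays did not overlap, and for Hnf4a, the factor with the most direct link to proximal tubule genes, which has 2 alternative promoters. The sequences are from RefSeq (GRCm38.p6), 250 bases before to 50 after the start, on the plus strand, at chr16:95702157-95702456 for Ets2, chr2:163506607-163506906 for the upstream and chr2:163546905-163547204 for the downstream Hnf4a promoter. Capitals mark matches to GGGCGG (GC box) or to GTTAAT (the core read by HNF1 factors), each searched on both strands.
Ets2: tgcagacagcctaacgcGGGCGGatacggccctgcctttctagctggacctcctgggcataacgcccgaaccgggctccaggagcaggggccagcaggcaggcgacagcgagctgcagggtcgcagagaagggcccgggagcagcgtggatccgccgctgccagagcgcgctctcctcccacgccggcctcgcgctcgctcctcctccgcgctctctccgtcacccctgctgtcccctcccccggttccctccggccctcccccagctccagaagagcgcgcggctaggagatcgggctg
Hnf4a upstream: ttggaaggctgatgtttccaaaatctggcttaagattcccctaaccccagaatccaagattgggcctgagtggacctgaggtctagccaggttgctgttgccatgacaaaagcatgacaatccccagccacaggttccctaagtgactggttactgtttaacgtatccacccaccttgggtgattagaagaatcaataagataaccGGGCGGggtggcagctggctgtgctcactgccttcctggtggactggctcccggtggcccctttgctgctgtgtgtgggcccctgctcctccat
Hnf4a downstream: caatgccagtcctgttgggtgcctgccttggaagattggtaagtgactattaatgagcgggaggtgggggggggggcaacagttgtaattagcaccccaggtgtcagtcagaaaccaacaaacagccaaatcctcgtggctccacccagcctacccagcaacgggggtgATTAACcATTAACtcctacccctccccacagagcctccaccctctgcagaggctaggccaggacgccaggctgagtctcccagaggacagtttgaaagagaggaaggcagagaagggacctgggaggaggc

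The Ets2 promoter was the richest in G and C of the 7 entries found for 6 of the genes, at 71.7% with 30 CpG pairs, while each Hnf4a promoter held 4 CpG pairs at 54.0% upstream and 57.3% downstream. The downstream Hnf4a promoter held 2 matches to GTTAAT, both on the opposite strand and separated by a single base. GTTAAT also stood in the Nr1h4 entry and occurs in 7.10% of all 32851 promoters of this length. GGGCGG stood once in Ets2, once in the upstream Hnf4a promoter, once in Pax8 and at 2 places in Esrra, and occurs in 35.7% of all promoters. None of the 7 entries held CCGGAAG (an ETS site, 8.86% of all promoters), CAAAGTCCA (an HNF4 site, 0.475%), AAGGTCA (an ERR site, 4.72%), TGANTCA (an AP-1 site, 7.81%) or TATAAA (13.6%). These matches describe letters in a short window and say nothing of binding. The 1 Hnf4a probe set does not separate transcripts of the alternative promoters.

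Array medians lay between 3.85 and 4.01 on the log2 scale and correlations between arrays over all probes between 0.901 and 0.955. Umod, the targeted gene, read 3.68, 4.26, 4.67, 4.55 and 5.27 in knockout replicates 1 to 5, against a lowest value of 5.27, a median of 5.67 and a highest value of 6.74 in wild type, so the groups met at 5.27. Its difference was -1.52 ± 0.24 (SE; limma adjusted p = 0.281), and the sources used here do not place its probes relative to the deletion. All 14 S3 markers were measured, each with a mean above the median named gene, and their mean log2 signal was 8.37 to 9.23 in knockout and 7.77 to 8.76 in wild-type arrays. A mean above the median named gene was also found for 11 of 12 measured S1 and S2 markers and 10 of 11 thick ascending limb markers. Mean signals of the S1 and S2 markers were 6.39 to 7.87 in knockout and 6.72 to 7.81 in wild type. Whether this signal came from cells of neighbouring segments was not tested. Knockout replicate 4 stood apart in markers of the distal nephron, with a mean of 7.06 for thick ascending limb markers, where the other knockout arrays had 5.45 to 5.92 and wild-type arrays 5.34 to 5.98, so values without it are given below.

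Ets2 was the only one of the 8 genes with no overlap between genotypes, and it was higher in knockout. Maf was lower in knockout in most arrays, Esrra was slightly lower, and the central factor Hnf4a, with Hnf4g, Pax8, Nr1h4 and Lhx1, differed by less than 0.25 on the log2 scale with overlapping groups. Over all named genes, 0.433% did not overlap and were higher in knockout and 0.194% did not overlap and were lower. These shares are given for scale, since the genes were chosen with this contrast in view. The signs for Hnf4a, Pax8, Nr1h4 and Lhx1 turned, to between -0.13 and -0.05, when replicate number was added as a block. With batch also in that model, its differences rest only on replicates 1 to 3 of each genotype, all of batch 1.

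**Figure D1:**
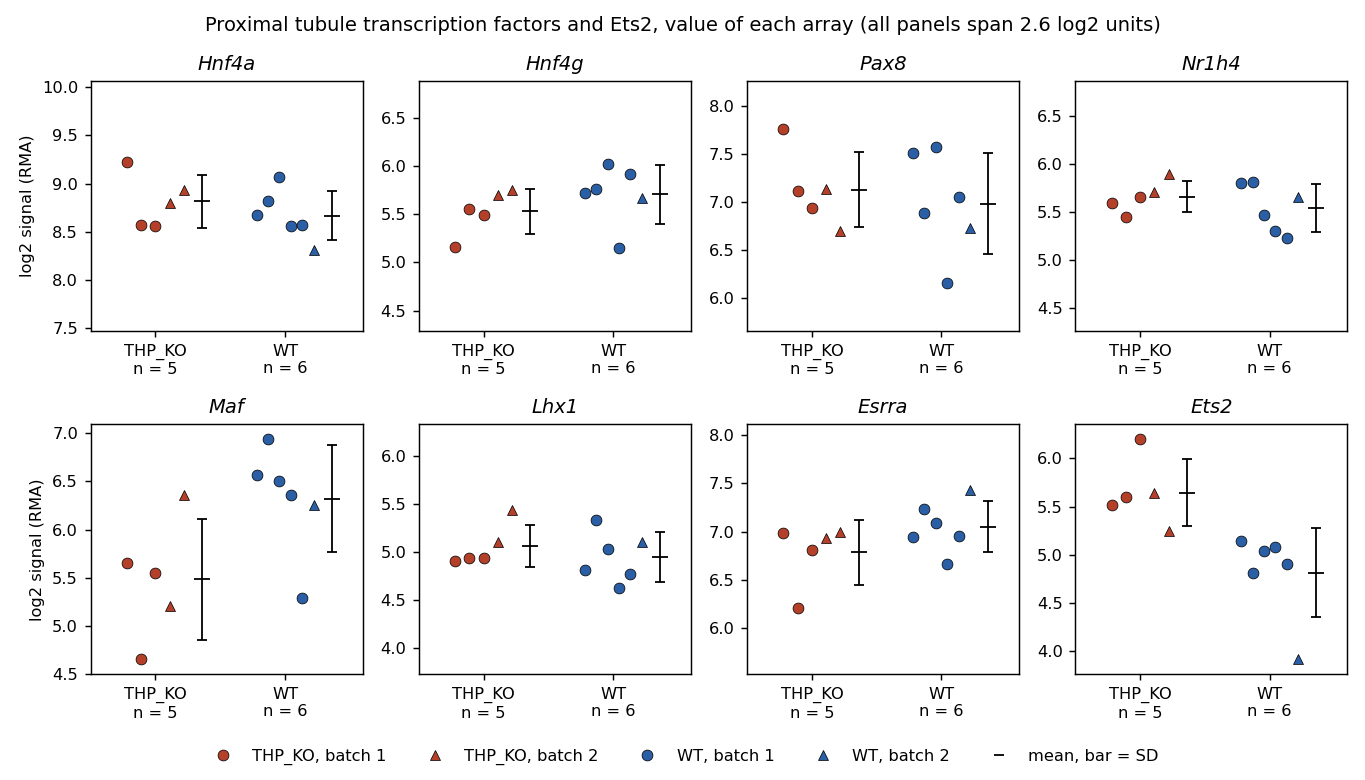
Log2 signal of the 8 genes in every array, knockout (THP_KO, red, n = 5) left of wild type (WT, blue, n = 6), circles for batch 1 and triangles for batch 2, with the mean and SD as bars. All 5 knockout arrays lie above all 6 wild-type arrays for Ets2, by 0.11 at the closest, and the other genes overlap.

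HNF4A had a strong signal in every array. Hnf4a (Entrez 15378, probe set 17379268) read 9.22, 8.57, 8.56, 8.80 and 8.93 in knockout replicates 1 to 5, against a lowest value of 8.31, a median of 8.62 and a highest value of 9.07 in wild type. A single knockout array stood above the wild-type range and none below it. The mean was 8.82 ± 0.275 (SD, n = 5) in knockout and 8.67 ± 0.259 (SD, n = 6) in wild type, and the difference with batch in the model was 0.18 ± 0.17 (SE), 0.05 within batch 1 and 0.55 within batch 2. The batch 2 value rests on 1 wild-type array, which was the lowest of all 11.

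Hnf4g (Entrez 30942, probe set 17395955), the relative that can bind the same sites, was 5.16, 5.56, 5.49, 5.70 and 5.75 in knockout replicates 1 to 5. In wild type its lowest value was 5.15, its median 5.74 and its highest 6.02. Every knockout array lay within the wild-type range. The difference was -0.21 ± 0.17 (SE), with -0.31 within batch 1 and 0.05 within batch 2, so the batches differed in sign.

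The bile acid receptor gene Nr1h4 (Entrez 20186, probe set 17244070) varied least of the 8 among knockout arrays, at 5.59, 5.45, 5.65, 5.71 and 5.89 in replicates 1 to 5, against 5.23 at the lowest, 5.56 at the median and 5.81 at the highest in wild type. Its difference was 0.07 ± 0.14 (SE), below its own error.

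Esrra (Entrez 26379, probe set 17362111), whose product drives genes of oxidative metabolism, read 6.98, 6.20, 6.81, 6.93 and 6.99 in knockout replicates 1 to 5, against a lowest value of 6.66, a median of 7.02 and a highest value of 7.43 in wild type. No knockout array exceeded the wild-type median, and replicate 2 alone lay below the wild-type range. The difference was -0.35 ± 0.16 (SE), -0.31 within batch 1 and -0.47 within batch 2, and it was -0.20 without knockout replicate 2.

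Pax8 (Entrez 18510, probe set 17382224), an epithelial lineage factor, spread widely within both genotypes. Its values were 7.76, 7.12, 6.94, 7.14 and 6.70 in knockout replicates 1 to 5, and 6.16 at the lowest, 6.97 at the median and 7.57 at the highest in wild type. The difference of 0.22 ± 0.27 (SE) was smaller than its error, and was 0.06 without knockout replicate 1.

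Lhx1 (Entrez 16869, probe set 17267039), a LIM homeobox factor of the early nephron, had values of 4.90, 4.93, 4.94, 5.10 and 5.43 in knockout replicates 1 to 5, with a lowest value of 4.62, a median of 4.92 and a highest of 5.33 in wild type. The difference was 0.05 ± 0.14 (SE). A further probe set named for both Lhx1 and its neighbour Lhx1os, an antisense long noncoding RNA, was not used because its signal cannot be assigned to either gene.

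Maf (Entrez 17132, probe set 17513289) was 5.65, 4.65, 5.55, 5.21 and 6.36 in knockout replicates 1 to 5, against a lowest value of 5.29, a median of 6.43 and a highest value of 6.94 in wild type. All 5 knockout arrays lay below the wild-type median, 2 of them below the whole wild-type range, and the overlap came from knockout replicate 5 and wild-type replicate 5. The mean was 5.48 ± 0.626 (SD, n = 5) in knockout and 6.32 ± 0.556 (SD, n = 6) in wild type. The fitted difference was -0.90 ± 0.34 (SE), or 1.86-fold lower in knockout, with -1.05 within batch 1 and -0.47 within batch 2, and -0.81 without knockout replicate 4.

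A second Maf probe set (17505903) gave a different picture. It read 3.84 to 4.15 in knockout arrays and 3.50 to 5.78 in wild type, where replicates 2 and 3, at 5.62 and 5.78, stood above the rest. Its difference of -0.40 ± 0.42 (SE) did not exceed its error, and the mean of both probe sets gave -0.65. The sources used here do not say which Maf transcripts each probe set reads.

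Ets2 (Entrez 23872, probe set 17327465) read 5.52, 5.60, 6.20, 5.64 and 5.25 in knockout replicates 1 to 5, against a lowest value of 3.91, a median of 4.97 and a highest value of 5.14 in wild type. The lowest knockout array, replicate 5, stood 0.11 above the highest wild-type array, replicate 1. The mean was 5.64 ± 0.347 (SD, n = 5) in knockout and 4.81 ± 0.459 (SD, n = 6) in wild type. The fitted difference was 0.98 ± 0.18 (SE), or 1.97-fold higher in knockout. For scale only, since the genes were chosen with this contrast in view, 99.8% of named genes had a smaller difference in size. At the other end, 0.1% of named genes had a lower signed difference than Maf.

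The lowest Ets2 value, 3.91, came from wild-type replicate 6, which is alone in its genotype in batch 2, and the next was 4.81. The Ets2 difference was larger in batch 2, at 1.54, than in batch 1, at 0.78. Without wild-type replicate 6, batch 2 has no wild-type array, so the fit returned the batch 1 value of 0.78 again. Leaving out knockout replicate 4 gave an Ets2 difference of 0.90. Within batch 1 knockout arrays read 5.52 to 6.20 and wild-type arrays 4.81 to 5.14. That these do not overlap follows from the lack of overlap over all arrays and adds nothing to it.

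**Figure D2:**
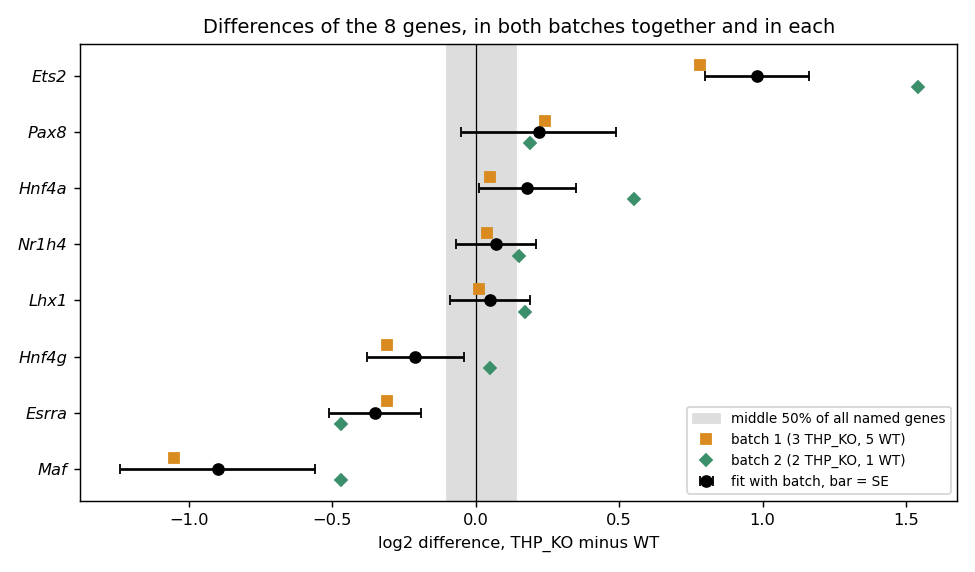
Log2 difference, knockout (THP_KO) minus wild type (WT), for each of the 8 genes: black points with SE bars from the fit with batch, orange squares for batch 1 and green diamonds for batch 2. The grey band, from -0.10 to 0.14, holds the middle 50% of all named genes, and the intervals of 1 SE for Ets2, Maf and Esrra lie outside it.

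The difference between batches was not itself used to choose the genes and was tested. Its estimate is not independent of the genotype difference, since both come from the same fit and the batches held unequal shares of the genotypes. The batch difference ran from -0.64 for Ets2 to 0.36 for Esrra (batch 2 minus batch 1, log2 scale). None of the 8 passed, with limma adjusted p from 0.650 for Ets2 to 0.929 for Hnf4a after Benjamini-Hochberg over all probes, and 0% of all 41345 probes passed, where 2714 were at an unadjusted p under 0.05.

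The partners and targets of these factors were read from lists, with members removed. No gene of any list passed. Over the 41345 probes limma called 0% after Benjamini-Hochberg adjustment, with 0.0813 as the lowest adjusted p, and 2546 probes (6.16%) had an unadjusted p under 0.05. Among named genes that share was 5.64%, with 808 higher and 444 lower in knockout, and the median difference was 0.015.

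HNF4A-linked genes of the proximal tubule, mostly carriers and metabolic enzymes, were balanced. Of 27 measured out of 30, 11 were higher and 16 lower in knockout. The median difference was -0.02, which was 0.06 without knockout replicate 2 and -0.28 with the replicate block. At an unadjusted p under 0.05 there were 2 higher and 3 lower. Ugt2b38, a UDP-glucuronosyltransferase, differed most at 3.68 ± 0.60 (SE). Its wild-type arrays were dim (mean 2.73), so no fold is given and close relatives may share its signal. The Ugt2b38 difference was 2.83 and past the threshold without knockout replicate 3. This list was chosen with earlier results of these arrays known, and whether HNF4A acts on Ugt2b38 was not tested. The organic anion carrier Slc22a8 was at -1.78 ± 0.44 (SE), with 5.75 ± 1.05 (SD, n = 5) in knockout and 7.24 ± 0.888 (SD, n = 6) in wild type. The lactate carrier Slc5a12 was at -0.63 ± 0.19 and glucose-6-phosphatase G6pc at -1.01 ± 0.42. For Slc22a8 and Slc5a12 the values are also those of S1 and S2 markers.

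The HNF1-linked list had 10 measured genes of 12, 5 higher and 5 lower, with a median of -0.05. The ciliary protein gene Cys1 (0.45 ± 0.16, SE) and the cytokine signalling suppressor Socs3 (-0.45 ± 0.17, or -0.23 ± 0.11 over the mean of its probe sets) had the smallest p. Among 20 measured of 22 other transcription factors of the proximal tubule, 13 were higher and 7 lower, with a median of 0.03. The glucocorticoid receptor Nr3c1 was at -0.35 ± 0.13, the xenobiotic receptor Nr1i2 at -0.45 ± 0.19 and the lipid regulator Srebf1 at 0.34 ± 0.14, and their adjusted p (limma, Benjamini-Hochberg) was 0.761 to 0.792.

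The list of nuclear receptor cofactors, which also named receptors such as Rxra and Nr2f2, had a median of 0.06. Over its 19 measured genes of 21, 11 were higher and 8 lower. The coactivator Ncoa1 at 0.34 ± 0.13 (SE) was the one gene at an unadjusted p under 0.05. The closest relatives of the 8 factors differed little: of 12 measured out of 14, 3 were higher and 9 lower, the median was -0.03 and none was at an unadjusted p under 0.05. In this list Nr1h3, the oxysterol receptor related to Nr1h4, was at 0.20 ± 0.11 and Esrrg, related to Esrra, at -0.12 ± 0.11.

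Regulators of kidney development, the setting in which Pax8 and Lhx1 act, were evenly split, with 15 of 28 higher, 13 lower and a median of 0.02, and none at an unadjusted p under 0.05. The forkhead gene Foxc2, at -0.27 ± 0.15 (SE), had the smallest p. Transcription factors of other nephron segments were split 13 to 13 over 26 genes, with a median of -0.01, and Emx1 was the one gene at an unadjusted p under 0.05 (-0.37 ± 0.17).

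**Figure D3:**
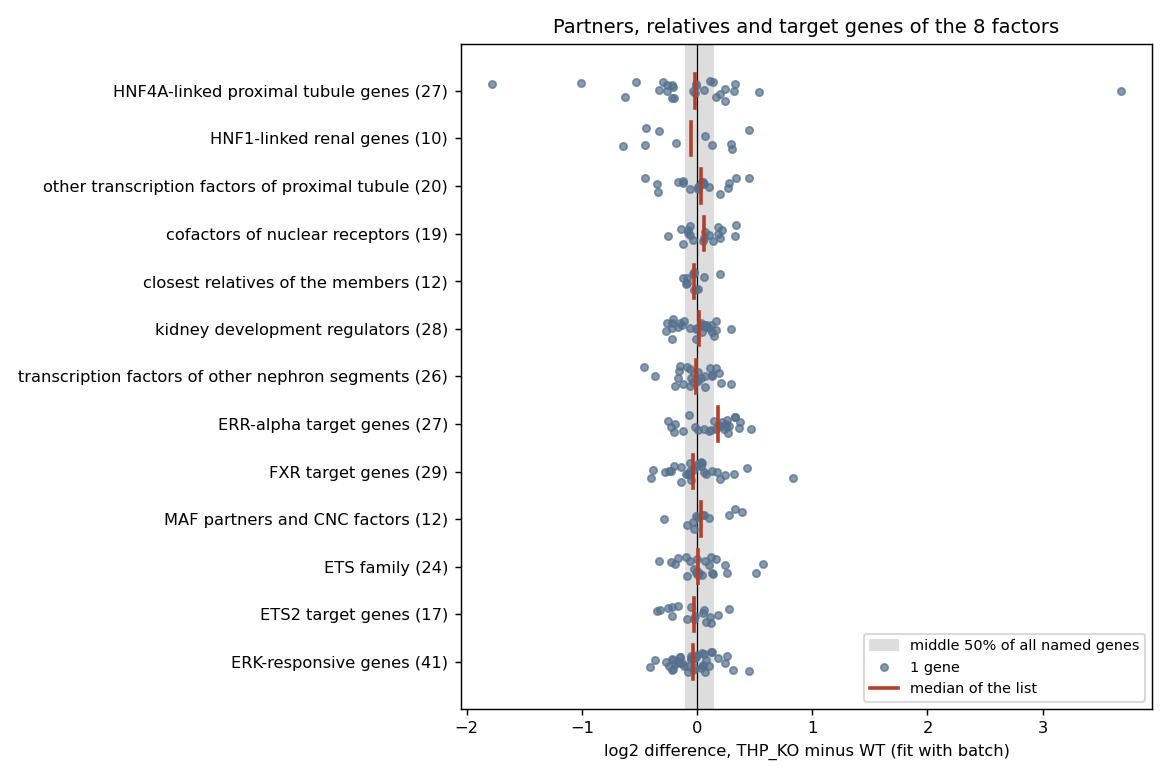
Log2 difference, knockout minus wild type, of every measured gene in the lists of partners, relatives and targets (blue points, number of genes in brackets), with the list median in red and the middle 50% of all named genes in grey. The median of ERR-alpha target genes, at 0.18, lies outside the grey band, and the other medians lie inside it.

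ERR-alpha target genes, mostly of mitochondrial metabolism, had a median of 0.18, the highest of the regulator and target lists, while Esrra itself was at -0.35. The median was 0.10 and 0.11 without knockout replicates 3 and 4 and 0.04 with the replicate block. Of 27 measured genes out of 29, 20 were higher and 7 lower, and 1 was at an unadjusted p under 0.05, the fatty acid binding protein Fabp3 (0.33 ± 0.14, SE). Over the mean of its probe sets Fabp3 was at 0.13 ± 0.11. The isocitrate dehydrogenase subunit Idh3a was at 0.33 ± 0.16 and mitofusin Mfn2 at 0.47 ± 0.23, with an adjusted p of 0.823 each by limma. FXR target genes, known mainly from liver and intestine, had a median of -0.04 over 29 measured of 30, with 13 higher and 16 lower, and 1 at an unadjusted p under 0.05 (the fibrinogen chain Fga, 0.43 ± 0.17, from dim means of 3.76 in knockout and 3.37 in wild type).

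The partners of MAF, small MAF and CNC factors, had a median of 0.03 over 12 of 13 genes, with 7 higher and 5 lower. Nfe2 was at -0.29 ± 0.10 (SE) and the proteasome regulator Nfe2l1 at 0.39 ± 0.16. Nfe2 was dim, with a mean no higher than that of the median probe set (3.94).

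Other ETS family genes had a median near that of all genes. Of 24 measured relatives out of 25, 14 were higher and 10 lower in knockout, and the median was 0.01. Etv6, an ETS repressor, was at 0.57 ± 0.18 (SE), with 6.99 ± 0.208 (SD, n = 5) in knockout and 6.42 ± 0.334 (SD, n = 6) in wild type and an adjusted p of 0.735 (limma, Benjamini-Hochberg), and Spib, at 0.51 ± 0.20, was dim, with means of 2.68 in knockout and 2.27 in wild type. None of the 24 had groups without overlap.

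Genes reported as ETS2 targets in other tissues had a median of -0.03, with 7 of 17 higher, 10 lower and none at an unadjusted p under 0.05. The matrix protease gene Mmp9, at -0.35 ± 0.16 (SE), had the smallest p. It was dim, with a mean no higher than that of the median probe set (3.94). Among genes that respond to ERK signalling, which also activates ETS2, 15 of 41 were higher and 26 lower, with a median of -0.04. The matricellular gene Ccn1 (0.45 ± 0.20) was the one at an unadjusted p under 0.05, and the ERK inhibitor Spry4 was at -0.41 ± 0.19.

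Markers of the captured segment and its neighbours had medians away from 0, with no gene past the threshold. Of the 14 S3 markers 13 were higher in knockout, with a median difference of 0.34 (0.20 without knockout replicate 3), led by the carrier Slc22a7 (1.11 ± 0.34, SE), the flippase Atp11a (0.45 ± 0.15, but 0.26 ± 0.11 over the mean of its probe sets) and Rnf24 (0.83 ± 0.36), and their summed linear signal was 10368 to 19459 in knockout and 8354 to 14087 in wild-type arrays. Of 12 measured S1 and S2 markers out of 13, 10 were lower, with a median of -0.24, which was 0.02 without knockout replicate 2, and sums of 3383 to 8903 in knockout and 3665 to 9061 in wild type. Thick ascending limb markers were higher in 10 of 11 measured out of 12, Umod being the exception. Their median was 0.32 (0.06 without knockout replicate 4, and 0.09 in batch 1 alone). Their sums were 702 to 2979 in knockout and 596 to 1027 in wild type, and Cldn19 was at 0.50 ± 0.22. The part of these shifts in the Ets2 and Maf differences was not tested, and in such dissected tissue fewer cells of a type and less RNA per cell cannot be told apart.

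Other marker lists had medians closer to 0. Macrophage markers, a cell type that also uses MAF, had a median of 0.03, with 8 of 10 measured higher, 2 of 10 with a mean above the median named gene and sums of 248 to 307 in knockout and 201 to 262 in wild type, and Csf1r was at 0.58 ± 0.19 (SE). Endothelial markers, a cell type rich in ETS factors, had a median of 0.06 with 10 of 11 higher and sums of 263 to 336 in knockout and 266 to 313 in wild type. Medians were -0.07 for thin limb and 0.18 for distal convoluted and connecting tubule (-0.06 in batch 1 alone). For principal cells the median was 0.16 (-0.21 in batch 1 alone and -0.14 without knockout replicate 4). For intercalated cells it was 0.09 (-0.02 without knockout replicate 4, and up to 0.20 with another array left out). It was 0.01 for fibroblasts and pericytes, -0.04 for podocytes and -0.05 for lymphocytes. Injury markers had a median of -0.05, and the injury marker Havcr1 (KIM-1) was at -0.85 ± 0.25, with dim means of 3.32 in knockout and 4.06 in wild type. The erythroid list had 1 measured gene of 7, which is also an intercalated cell marker.

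**Figure D4:**
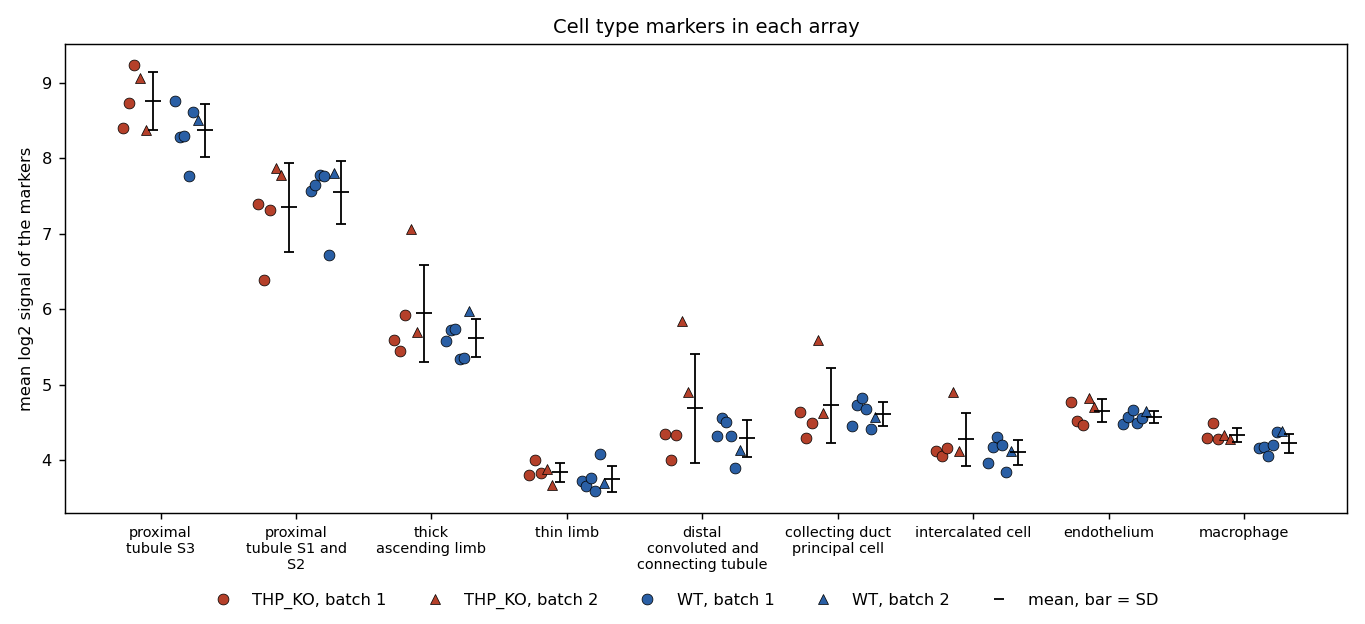
Mean log2 signal of the measured markers of 9 cell types in each array, knockout (THP_KO, red) left of wild type (WT, blue), circles for batch 1, triangles for batch 2, bars for mean and SD. Knockout replicate 4 has the highest value for thick ascending limb, distal convoluted and connecting tubule, principal and intercalated cell markers, at 7.06, 5.85, 5.59 and 4.91.

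How the 8 genes varied between arrays of the same genotype and batch was independent of the contrast. For 10 arrays (the lone wild-type array of batch 2 has no partner) each value was taken as a deviation from the mean of its genotype and batch, and 60 relations were tested, the 28 pairs of genes and each gene with 4 lists, by two-sided exact permutation within those sets (1440 arrangements). None passed an adjusted p of 0.05 with Benjamini-Hochberg, and 2 had an unadjusted p under 0.05 for Pearson's r. The values in a relation come from the same arrays and so share each array's RNA and its normalization.

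Nr1h4 with Maf had the smallest p of the 60, with Pearson's r = 0.76 (exact permutation p = 0.00208, adjusted p = 0.125) and Spearman's rho = 0.88 (exact permutation p = 0.00139, adjusted p = 0.0833), and r = 0.79 without the 2 arrays farthest from the median of Nr1h4. Lhx1 and Esrra had r = 0.51 (exact permutation p = 0.0250, adjusted 0.625) and rho = 0.56 (exact permutation p = 0.0375, adjusted 0.719), which rested on 2 arrays, since r was 0.13 without them. Hnf4a and Pax8 had r = 0.63 (exact permutation p = 0.0924, adjusted 0.625) and rho = 0.70 (exact permutation p = 0.0479, adjusted 0.719), with r = 0.27 without the 2 farthest arrays.

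Maf with the S1 and S2 markers had r = 0.77 (exact permutation p = 0.0563, adjusted 0.625) and rho = 0.52 (exact permutation p = 0.135, adjusted 0.737), but r was 0.05 without knockout replicate 2 and wild-type replicate 5, the arrays with the lowest S1 and S2 marker means (6.39 in knockout replicate 2 and 6.72 in wild-type replicate 5). Those are also the arrays with the lowest Maf value of their genotype. Ets2 had r = 0.61 with S3 markers (exact permutation p = 0.134, adjusted 0.625; rho = 0.72, exact permutation p = 0.0722, adjusted 0.737), and r = 0.36 without knockout replicates 3 and 1. With thick ascending limb markers Ets2 had r = 0.58 (exact permutation p = 0.171, adjusted 0.625; rho = 0.58, exact permutation p = 0.299, adjusted 0.737), and r = 0.63 without the same arrays.

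No relation was detectable between the paralogs Hnf4a and Hnf4g, with r = 0.03 (exact permutation p = 0.956, adjusted 0.999) and rho = -0.12 (exact permutation p = 0.788, adjusted 0.968), and r = 0.07 without knockout replicate 1 and wild-type replicate 3. None was detectable with the mean of the HNF4A-linked genes either: r was 0.28 for Hnf4a (exact permutation p = 0.633, adjusted 0.957; rho = 0.19, exact permutation p = 0.710, adjusted 0.955) and -0.14 for Hnf4g (exact permutation p = 0.737, adjusted 0.989; rho = 0.05, exact permutation p = 0.896, adjusted 0.968). Without the 2 farthest arrays these were 0.19 and -0.23.

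**Figure D5:**
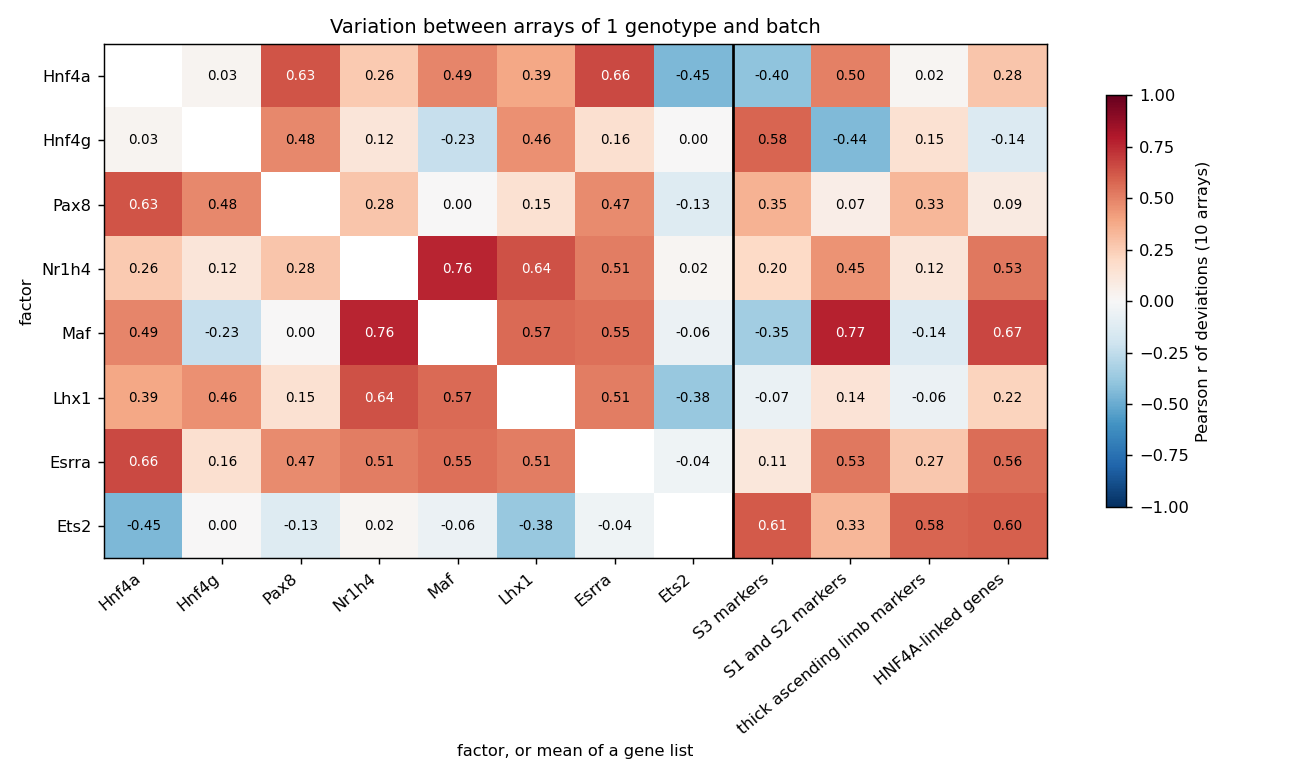
Pearson's r between deviations from the mean of the own genotype and batch over 10 arrays, for the 8 genes (rows) with each other and, right of the black line, with the mean of 4 gene lists. Red is positive and blue negative. The darkest cells, Nr1h4 with Maf at 0.76 and Maf with S1 and S2 markers at 0.77, did not pass after adjustment.

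Over the same 10 arrays, the genes whose deviations were most like those of Ets2 among 10379 compared were Reep3 (r = 0.97), Tmem179b, Grpel1 and Get1 (0.96 each) and Oxsm (0.95). For Hnf4a they were Caap1 (0.98) and Cxxc1, Tle5, Rsrp1 and Ppp6r1 (0.97 each), and for Hnf4g Dr1 (0.97), Cabcoco1 (0.95), Zfyve21 and Coq5 (0.94 each) and Mvk (0.93). These are the highest of many values over few arrays and are given as a description, with no test. Of those like Ets2, Grpel1, a mitochondrial import factor, had the largest difference between genotypes, at 0.65. It read 7.14 to 7.93 in knockout and 6.52 to 7.16 in wild-type arrays. The others were at 0.36 (Reep3), 0.13 (Tmem179b), 0.04 (Get1) and 0.11 (Oxsm), and the groups overlapped for each of these genes.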

How the data were processed

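RNA from kidney S3 proximal tubules was extracted with the Arcturus PicoPure kit, and, per the labels' protocols, 2 ng from each was labelled (Affymetrix WT Pico). The deposited values are log2 signals per probe set, made by the authors with Partek 6.6 and RMA, per the submitters' processing notes. RMA brings arrays to a like distribution, which can shrink shared changes. Any batch correction, and the genome build, are not given in the sources used here. Depth does not apply to arrays, whose number limits the precision, and no detection values were used.

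Of 41345 probe sets, 23521 carried 1 gene symbol in the platform annotation, 1814 several and 16010 none. Each was fitted with limma 3.58.1 in R 4.3.3 (genotype and batch as terms, 8 residual degrees of freedom, no filter), two-sided, with Benjamini-Hochberg adjustment and a threshold of 0.05. The script was tested on simulated data. Within-batch differences are differences of means. Dixon's test marked arrays far from their group. Python 3.11.15 with matplotlib 3.10.9 made the figures.

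The genes, the 27 gene lists (380 of 413 symbols matched, members removed) and the tests were chosen with earlier results of these data known. Named from each list were up to 4 genes with the smallest p, and for Ets2, Hnf4a and Hnf4g the 5 genes of most similar deviations. Alternatives were the replicate number as a block, batch left out, batch random, only batch 1, median centring, quantile normalization, array weights, a trended and robust prior, brighter probe sets only, other choices of probe set and each array left out. Replicate numbers were not taken as pairs.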

Additional observations from a re-analysis of the deposited data

Results flagged for a closer look

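Dixon's test at the 95% level marked 4 of 70 sets of values (the 8 genes and 27 list medians in each genotype), where chance marks about 1 in 20. Ets2 in wild-type replicate 6 read 3.91, when the nearest other wild-type array read 4.81. Esrra in knockout replicate 2 was 6.20, with the nearest other knockout array at 6.81. The median of the intercalated cell markers in knockout replicate 4 was 5.14, with the nearest other knockout array at 4.41. The median of thin limb markers in wild-type replicate 5 was 3.94, with the nearest other wild-type array at 3.59.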

How the results depend on the processing

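The Ets2, Maf, Esrra and Hnf4g differences kept their sign under every alternative tried, which for Ets2 follows largely from its groups not overlapping. They ran, with each array left out, from 0.78 to 1.11 for Ets2, from -1.08 to -0.65 for Maf, from -0.47 to -0.20 for Esrra and from -0.31 to -0.11 for Hnf4g. Hnf4a ran from 0.05 to 0.28, Pax8 from 0.06 to 0.34, Nr1h4 from 0.02 to 0.12 and Lhx1 from 0.00 to 0.13. The replicate block took replicate number as a further term beside batch, which left only replicates 1 to 3 of each genotype to set the differences. Under it Hnf4a was at -0.07, Pax8 at -0.05, Nr1h4 at -0.13 and Lhx1 at -0.13, so these 4 turned. Ets2 was at 0.78, Maf at -1.39, Esrra at -0.42 and Hnf4g at -0.43. Deviations of same-numbered arrays correlated between -0.18 and 0.01 and no array correlated best with its own number, so the numbers were not read as pairs. Probes past the adjusted threshold numbered 0 in the model with batch, 3 in batch 1 alone, 1 with 1 probe set per gene, and 0 to 11 with an array left out (11 without knockout replicate 5 and 2 when knockout replicate 3 was dropped; 3 without wild-type replicate 6 and 1 when wild-type replicate 1 was dropped). Those at an unadjusted p under 0.05 numbered 2546, 1480 among brighter probe sets and 1525 with 1 probe set per gene, where fewer were tested, and 2096 to 3016 with an array left out. Ugt2b38 alone among 32 named list genes changed sides of the threshold, passing at 2.83 without knockout replicate 3. Of 27 list medians, 21 changed sign under some alternative and 6 did not. With median centring, 0 of 60 relations passed, and r of Hnf4g with the HNF4A-linked genes turned to 0.04. The causes were not tested. Signal over background was not measured, which limits what can be said of dim genes.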
